A study of Mus musculus with 12 samples.

Results

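The 9 genes described here were *Cldn11* and 8 other genes of the tight junction, *Cldn1*, *Cldn5*, *Cldn10*, *Cldn12*, *Ocln*, *Tjp1*, *Cgn* and *F11r*, taken by gene name from a table of read counts for 18903 genes. Of these, 6 had a row and all 6 passed the filter on low counts (*Cldn1*, *Cldn11*, *Cldn12*, *Ocln*, *Tjp1* and *F11r*), while *Cldn5*, *Cldn10* and *Cgn* were not analysed here. *Cldn11* was chosen with its levels at P8 known, so every value of it that involves a P8 group is given as a description with no test. The data were 12 RNA-seq libraries of primary astrocytes grown from the brains of mice at postnatal day 1, 6 or 8 (P1, P6 or P8). These are the ages of the animals at dissection, after which the cells were kept in culture. Words such as rose and fell below therefore compare separate cultures, not the same cells over time. Each of the 6 groups, a genotype label at a time point, had 2 libraries. The question addressed was how loss of RACK7, a chromatin reader protein, alters transcription in these cells. The label cKO stands for hGFAP-Cre::*Rack7* fl/fl and the label WT for hGFAP-Cre::*Rack7* +/+, so that both carried the Cre transgene. The human GFAP promoter of this transgene is active in multipotent neural stem cells of the embryonic brain, which give rise to neurons as well as glia, and the deletion is therefore not restricted to astrocytes. The meninges had been removed and the flasks shaken to detach microglia and oligodendrocytes. The labels call the libraries biological replicates and do not say which or how many animals each came from.

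Tight junctions close the gap between neighbouring cells of an epithelium or endothelium. Claudins are membrane proteins that polymerize into the strands of the junction and set which ions pass, occludin (*Ocln*) is a MARVEL-domain protein of the same strands, and the junctional adhesion molecule JAM-A (*F11r*) is an immunoglobulin protein that joins cells beside them. ZO-1 (*Tjp1*) is the scaffold on the cytoplasmic side that ties claudins, occludin and JAM-A to actin. In the brain, claudin-5 is the main claudin of vessels, whereas claudin-11 is known from the myelin of oligodendrocytes and from the barrier cells of the arachnoid. Astrocytes are coupled mainly by gap junctions, and ZO-1 is also a partner of gap junction proteins.

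*Zmynd8*, the gene of RACK7, went against its label. Its CPM (reads of a gene scaled by the normalized library size) lay between 99.98 and 136 in the libraries labelled WT and between 160.4 and 242 in those labelled cKO, and it was higher under the label cKO at all 3 time points. A count over the whole gene does not show whether the exons flanked by loxP sites were present. WT and cKO are therefore names of labels below, and each direction rests on them. Library totals lay between 54413504 and 89183250 counts. All 12 libraries were fitted together in edgeR, and a gene was called when its Benjamini-Hochberg adjusted p from the quasi-likelihood test was below 0.05 and its fold change at least 1.5. With 2 libraries a group, the smallest two-sided p of an exact permutation test is 0.333, and the quasi-likelihood test therefore draws its spread from all genes and groups.

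*Cldn11* (ENSMUSG00000037625) lies on chromosome 3 of GRCm38, 31149920 to 31164324, on the plus strand. Its promoter window is shown because *Cldn11* had the widest range of the 6 genes, and those of *Cldn1* and *F11r* because these were the other members called between the labels at some time point. *Cldn1* (ENSMUSG00000022512) lies on chromosome 16, 26356642 to 26371841, on the minus strand, and *F11r* (ENSMUSG00000038235) on chromosome 1, 171437535 to 171464603, on the plus strand. Each window runs from 250 bases before to 50 bases after a RefSeq transcript start on GRCm38.p6 and is written 5′ to 3′ on the strand of its gene, at chr3:31149670-31149969 (plus) for *Cldn11*, chr16:26371790-26372089 (minus) for *Cldn1* and chr1:171437311-171437610 (plus) for *F11r*. Capitals mark the GC box motif GGGCGG or its reverse complement CCGCCC.
Cldn11: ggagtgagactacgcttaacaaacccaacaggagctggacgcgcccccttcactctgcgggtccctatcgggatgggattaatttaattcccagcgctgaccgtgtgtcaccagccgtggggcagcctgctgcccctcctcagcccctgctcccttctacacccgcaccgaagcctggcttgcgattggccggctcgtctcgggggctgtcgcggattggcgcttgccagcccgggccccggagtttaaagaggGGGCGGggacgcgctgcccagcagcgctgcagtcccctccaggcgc
Cldn1: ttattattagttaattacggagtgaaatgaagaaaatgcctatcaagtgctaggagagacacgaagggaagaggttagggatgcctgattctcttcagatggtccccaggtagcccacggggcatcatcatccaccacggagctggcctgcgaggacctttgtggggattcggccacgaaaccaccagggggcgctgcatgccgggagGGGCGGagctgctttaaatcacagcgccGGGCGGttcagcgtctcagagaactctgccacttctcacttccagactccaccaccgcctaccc
F11r: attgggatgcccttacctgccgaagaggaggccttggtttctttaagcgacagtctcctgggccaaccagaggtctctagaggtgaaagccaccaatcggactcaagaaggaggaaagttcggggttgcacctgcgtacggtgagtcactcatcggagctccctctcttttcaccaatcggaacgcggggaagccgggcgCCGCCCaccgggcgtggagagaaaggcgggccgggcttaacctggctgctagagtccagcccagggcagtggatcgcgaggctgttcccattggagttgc
The *Cldn11* window held 24 CpG dinucleotides and 1 GC box, the *F11r* window 19 and 1, and the *Cldn1* window 15 and 2. Over 32851 RefSeq windows of 300 bases the median was 7 CpG dinucleotides, and 35.7% held a GC box on either strand, so this motif does not set the 3 genes apart. The letters TATAAA, searched on both strands and present in 13.6% of all windows, and CTTTGA, present in 16.0%, were in none of the 3 windows.

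*Cldn11* was near 0 in some groups and abundant in others. At P1 the libraries labelled WT held 16 and 44 reads, and the label cKO had 124 and 170. At P6 the libraries labelled WT held 460 and 512 reads, against 4 and 6 under the label cKO. At P8 there were 2177 and 2785 reads under the label WT, and 8 and 0 under the label cKO. The order of the 2 labels was thus opposite at P1 and at the later time points, and the labels did not overlap at any of them.

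In CPM, the WT pair of *Cldn11* values was 0.268 and 0.541 at P1, then 7.26 and 7.48 at P6, then 36.6 and 38.6 at P8. The cKO pair was 2.11 and 2.98 at P1, then 0.0609 and 0.0933 at P6, then 0.109 and 0 at P8. The group means were, from the highest, 37.6 ± 1.39 in P8 WT (SD, n = 2 for each mean), 7.37 ± 0.153 in P6 WT, 2.55 ± 0.619 in P1 cKO, 0.404 ± 0.193 in P1 WT, 0.0771 ± 0.0229 in P6 cKO and 0.0546 ± 0.0772 in P8 cKO. Only the last pair of neighbours in this order overlapped.

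**Figure D1:**
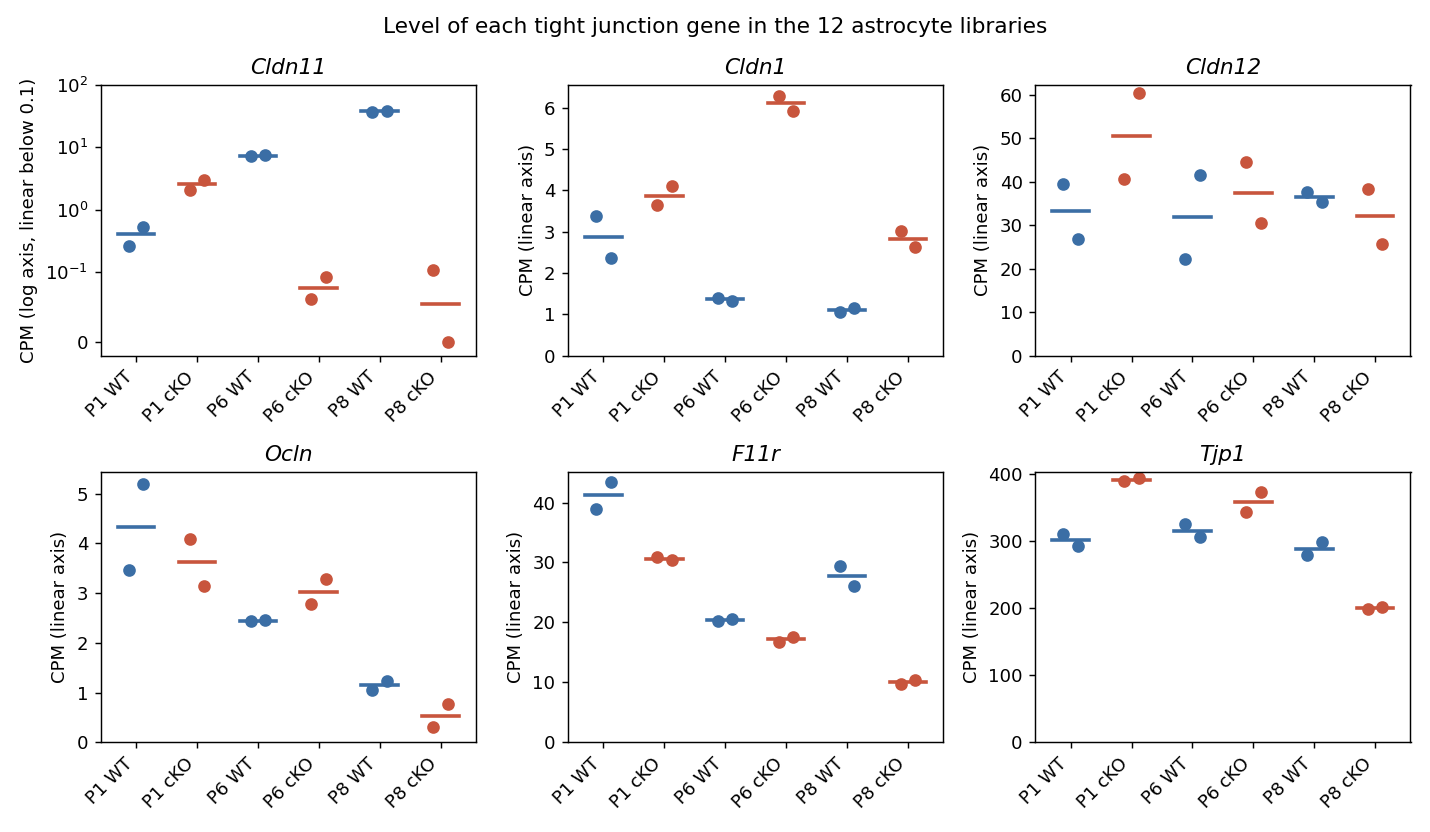
CPM of the 6 measured genes in each of the 12 libraries (points) with the mean of each group of 2 (line), blue for the label WT and red for the label cKO. The axis of *Cldn11* is logarithmic above 0.1 CPM and the others are linear from 0. *Cldn11* climbs from 0.404 to 37.6 CPM on average under the label WT and is at most 0.109 CPM in the 4 later libraries labelled cKO, *Cldn12* overlaps between labels at P6 and P8, and *Tjp1* and *F11r* are lowest in P8 cKO.

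At P1 *Cldn11* was 6.30-fold higher under the label cKO, with an interval of 4.51 to 8.02 for counting error only, and the fitted log2 fold change was 2.61 (SE 0.46, 95% CI 1.58 to 3.64, adjusted p = 0.00732). This call was lost without WT replicate 1 of P1, when the log2 fold change was 2.23 with adjusted p = 0.0522, and without WT replicate 2 it was 3.24. At P6 it was 95.5-fold lower under the label cKO, with a counting interval of 51.9 to 200.4, and the log2 fold change was -6.55 (SE 0.58, 95% CI -7.86 to -5.24, adjusted p = 3.96e-05). The difference between the P6 and P1 effects was -9.16 on the log2 scale (SE 0.74, adjusted p = 3.77e-05), so the reversal between these time points was larger than the spread between replicates. At P8 the mean was 689-fold lower under the label cKO (counting interval 376 to 1719), a value that rests on 8 reads in 1 of the 2 libraries labelled cKO.

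Between time points, *Cldn11* was 18.2-fold higher at P6 than at P1 under the label WT (counting interval 13.3 to 22.9, log2 fold change 4.14, SE 0.46, adjusted p = 8.47e-05). It was 33.0-fold lower at P6 than at P1 under the label cKO (counting interval 17.7 to 69.5, log2 fold change -5.01, SE 0.59, adjusted p = 1.54e-04). From P6 to P8 the mean under the label WT was 5.10-fold higher, and under the label cKO both time points were within the range of 0 to 0.109 CPM.

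The other 2 claudins among the members differed from *Cldn11* and from each other. *Cldn1*, known as a claudin of the skin barrier, had 3.39 and 2.36 CPM in the P1 WT libraries and 3.64 and 4.11 in P1 cKO. The P6 values were 1.40 and 1.31 CPM for WT with 6.29 and 5.93 for cKO, and the P8 values 1.04 and 1.15 for WT with 3.01 and 2.63 for cKO. The labels did not overlap at any time point, and the P6 cKO libraries held the highest levels of all 12.

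*Cldn1* was higher under the label cKO, with a log2 fold change of 2.17 at P6 (SE 0.22, adjusted p = 8.85e-05) and 1.36 at P8 (SE 0.22, adjusted p = 0.00103). At P1 the difference was 0.43 (SE 0.21, 95% CI -0.04 to 0.90, adjusted p = 0.273). The P6 effect exceeded the P1 effect by 1.73 (SE 0.30, adjusted p = 0.00396). The same difference for P8 against P1 was 0.93 with adjusted p = 0.0492, a call that was lost without any 1 of 11 libraries and under 4 of the other alternatives, with adjusted p up to 0.156. *Cldn1* fell from P1 to P6 under the label WT (log2 fold change -1.08, adjusted p = 0.00331) and rose under the label cKO (0.66, adjusted p = 0.0319), and the latter call was lost without any 1 of the 4 libraries compared, with adjusted p from 0.0699 to 0.147. *Cldn1* and *Cldn11* thus differed between the labels in opposite directions at P6.

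*Cldn12* (ENSMUSG00000046798, chromosome 5, 5489537 to 5514958), a claudin without the C-terminal PDZ-binding motif that ties most claudins to ZO proteins, was not called in any comparison. The P1 libraries had 39.6 and 26.8 CPM (WT) with 40.6 and 60.4 (cKO), the P6 libraries 22.3 and 41.6 with 44.5 and 30.4, and the P8 libraries 37.6 and 35.2 with 38.4 and 25.7. The labels did not overlap at P1 and overlapped at P6 and P8. Replicates differed by as much as the labels, and in the order of the 6 group means every neighbour overlapped the next. The log2 fold change had a value of 0.61 at P1 (95% CI -0.18 to 1.39), of 0.23 at P6 (-0.55 to 1.01) and of -0.18 at P8 (-0.96 to 0.59). Differences within these intervals were not detectable with 2 libraries a group.

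The make-up of the claudins was compared per length, as CPM per kilobase of exon (RPKM) of the 6 claudin genes with a row (*Cldn1*, *Cldn2*, *Cldn11*, *Cldn12*, *Cldn19* and *Cldn20*). Their sum was 11.2 in P1 WT, 19.4 in P1 cKO, 13.4 in P6 WT, 15.2 in P6 cKO, 30.5 in P8 WT and 13.1 in P8 cKO. *Cldn12* made up 70.1% of it in P1 WT and between 56.4% and 61.5% in P1 cKO, P6 WT, P6 cKO and P8 cKO, but 28.3% in P8 WT. *Cldn11* made up 1.93% in P1 WT, 29.4% in P6 WT and 65.9% in P8 WT, and 7.01%, 0.271% and 0.223% in the corresponding groups labelled cKO. The share of *Cldn19*, a claudin known from Schwann cells and kidney, was 3.73%, 6.41% and 1.79% under the label WT and 10.3%, 24.3% and 25.8% under the label cKO. The summed per-length level of these 6 claudins in P8 WT was therefore mostly *Cldn11*, and that in the later cKO groups mostly *Cldn12* and *Cldn19*. Claudins without a row, *Cldn5* and *Cldn10* among them, could not be included, and their levels are not known. Of 20 other claudins named, 3 had a row.

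**Figure D2:**
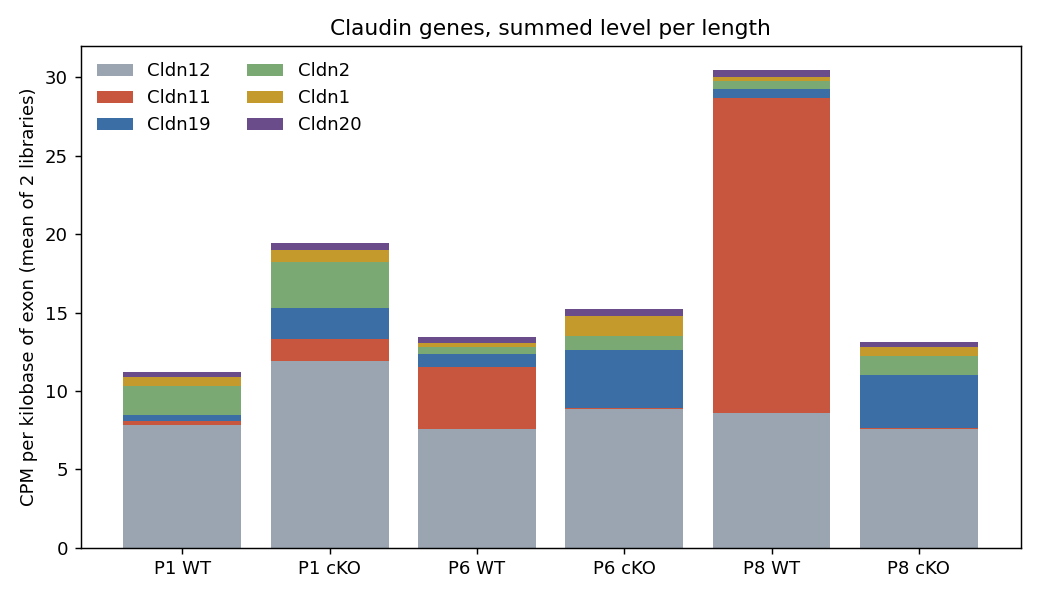
Stacked bars of the mean level per length (CPM per kilobase of exon, 2 libraries a group) of 6 claudin genes in the 6 groups. *Cldn11* makes up 65.9% of the bar of P8 WT and 0.223% of that of P8 cKO, while *Cldn12* has 7.56 to 11.9 in every group.

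*Ocln* (ENSMUSG00000021638, chromosome 13, 100496507 to 100552718) was low throughout and lowest at P8. The WT libraries had 3.47 and 5.20 CPM at P1, then 2.43 and 2.47 at P6, then 1.06 and 1.23 at P8. The cKO libraries had 4.10 and 3.14 at P1, then 2.77 and 3.28 at P6, then 0.300 and 0.761 at P8. Both P8 cKO libraries lay below all others, and the P1 libraries overlapped between labels. From P6 to P8 *Ocln* fell by 2.50 on the log2 scale under the label cKO (SE 0.40, adjusted p = 8.71e-04). The same step under the label WT was -1.09 (SE 0.38, adjusted p = 0.0519), and the difference between the labels' steps was -1.41 (SE 0.54, adjusted p = 0.103). This difference was called by DESeq2 (-1.44, adjusted p = 0.0208) and without cKO replicate 2 of P8 (-2.23, adjusted p = 0.0133), when the step under the label cKO was -3.33.

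Between the labels, *Ocln* differed by -0.26 at P1 (95% CI -1.09 to 0.56), 0.31 at P6 (-0.53 to 1.14) and -1.10 at P8 (-2.0 to -0.20, adjusted p = 0.0615), none of which was called in edgeR. The P8 difference was called by DESeq2 (adjusted p = 0.0102) and without cKO replicate 2 of P8 (-1.93, adjusted p = 0.00718), which had the higher *Ocln* of the pair.

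*F11r* was higher at P1 than later and lowest in P8 cKO. The P1 libraries had 39.0 and 43.5 CPM (WT) with 30.8 and 30.4 (cKO), the P6 libraries 20.3 and 20.6 with 16.8 and 17.6, and the P8 libraries 29.3 and 26.0 with 9.73 and 10.4. The label cKO was below the label WT without overlap at each time point. The log2 fold change at P8 was -1.46 (SE 0.09, adjusted p = 2.53e-06). At P1 it was -0.43 (adjusted p = 0.0168) with a fold below 1.5, and at P6 -0.25 (adjusted p = 0.0744). The P8 effect differed from the P6 effect by -1.21 (SE 0.13, adjusted p = 1.55e-04) and from the P1 effect by -1.03 (SE 0.13, adjusted p = 2.99e-04). *F11r* fell from P1 to P6 under both labels, by 1.01 on the log2 scale under WT (adjusted p = 1.91e-05) and by 0.83 under cKO (adjusted p = 8.47e-05). From P6 to P8 it differed by 0.44 under the label WT (adjusted p = 0.00455, fold below 1.5) and by -0.77 under the label cKO (adjusted p = 1.18e-04).

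*Tjp1* (ENSMUSG00000030516, chromosome 7, 65296165 to 65527781) was the most abundant member per length, with a mean of 39.7 RPKM over the libraries beside 9.22 for *F11r*, 8.74 for *Cldn12*, 4.28 for *Cldn11*, 0.624 for *Cldn1* and 0.596 for *Ocln*. Its span overlaps *Gm44792*, *Gm44794* and *Gm44795*, and reads could have been given to either. The P1 libraries had 310.3 and 293 CPM (WT) with 390.2 and 394 (cKO), the P6 libraries 325 and 307 with 344 and 373, and the P8 libraries 280.2 and 298 with 198 and 202. *Tjp1* was thus higher under the label cKO at P1 and P6 and lower at P8, without overlap.

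The log2 differences of *Tjp1* were 0.38 at P1 (SE 0.054, adjusted p = 0.00233), 0.18 at P6 (adjusted p = 0.0333) and -0.53 at P8 (SE 0.054, adjusted p = 5.85e-05), all with a fold below 1.5 and so not called. The P8 effect differed from that at P6 by -0.71 (SE 0.076, adjusted p = 1.68e-04) and from that at P1 by -0.91 (SE 0.076, adjusted p = 2.46e-05). From P6 to P8 *Tjp1* fell by 0.84 on the log2 scale under the label cKO (SE 0.054, adjusted p = 2.18e-06), and the value under the label WT was -0.13 (adjusted p = 0.0995).

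**Figure D3:**
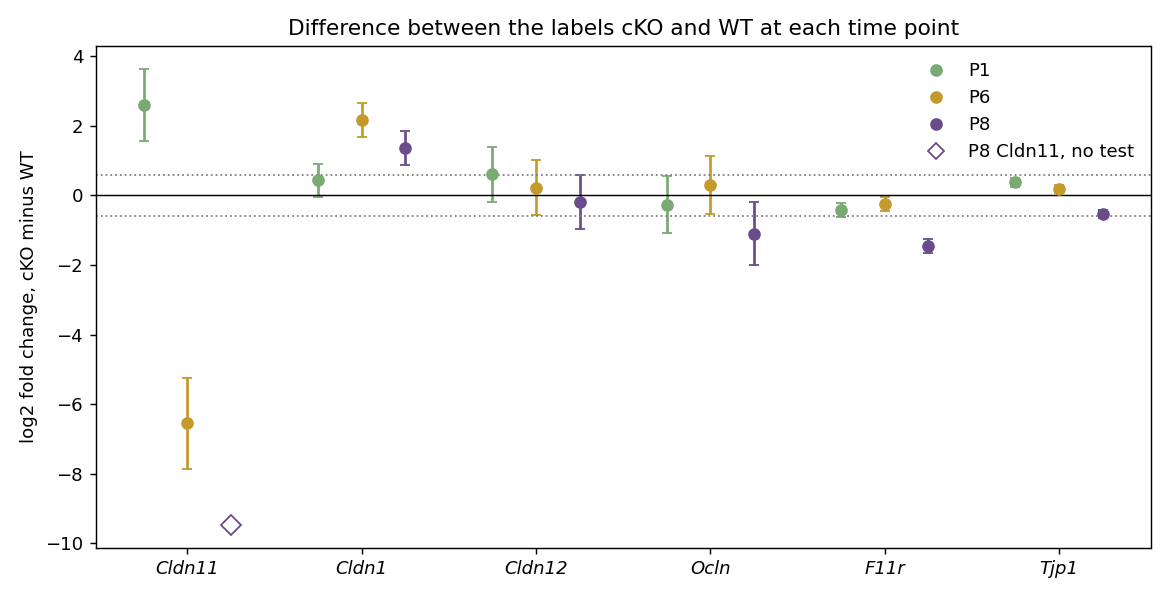
Log2 fold change between the labels (cKO minus WT, vertical axis) of the 6 measured genes at P1, P6 and P8, with 95% confidence intervals and dotted lines at a fold of 1.5 in each direction. *Cldn11* is at 2.61 at P1 and -6.55 at P6, its P8 value is an open diamond with no interval because the gene was chosen by it, and *Tjp1* and *F11r* are below 0 at P8.

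In all, the members called between the labels were 1 of 6 at P1 (*Cldn11*), 2 of 6 at P6 (*Cldn11* and *Cldn1*) and 2 of the 5 other than *Cldn11* at P8 (*Cldn1* and *F11r*). Of all 17938 genes tested, 4.90% were called at P1, 13.5% at P6 and 19.6% at P8. By adjusted p alone, 2 of 6 members had a label effect at P6 unlike that at P1, beside 15.3% of all genes. Of 5 members, 2 had a P8 effect unlike that at P6, beside 21.5%, and 3 one unlike that at P1, beside 25.7%. Under the label WT, 3 of 6 members were called between P1 and P6, beside 23.1% of all genes, and 0 of 5 between P6 and P8, beside 18.9%. For the latter step, 1 member (*Ocln*) was past the fold with an unadjusted p below 0.05, beside 21.9% of all genes by that rule, and DESeq2 called 1. Under the label cKO, 3 of 6 members were called between P1 and P6, beside 21.4% of all genes, and 4 of 5 between P6 and P8, all 4 falling, beside 24.0% called in either direction and 12.2% called as falling. These comparisons share groups and are not independent of each other.

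A list of 62 other tight junction genes was examined, of which 38 had a row and all 38 were tested. At P1, 3 of 38 were called higher under the label cKO and 0 lower, beside 4.01% and 0.892% of all genes. By the unadjusted p 1 gene was lower, beside 2.48% of all genes, and this was *Tjp3* (log2 fold change -1.08, adjusted p = 0.213), and DESeq2 called 0 lower. At P6, 6 were higher and 5 lower, beside 7.16% and 6.38%, and at P8 6 were higher and 4 lower, beside 11.2% and 8.37%. The list had a median log2 fold change of 0.22 (P1), 0.16 (P6) and -0.01 (P8), beside 0, 0 and 0.01 over all genes tested. The list thus held genes of either direction at P6 and P8.

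By role, 2 of the 3 other claudins measured, *Cldn2* and *Cldn19*, were called higher under the label cKO at each time point, and *Cldn20*, at 0.101 to 0.505 CPM, was not called. Of all genes tested, 4.01% were called higher at P1, 7.16% at P6 and 11.2% at P8. *Cldn19* had 2.78 and 0.774 CPM (WT) with 8.14 and 8.92 (cKO) in the P1 libraries, 3.19 and 4.15 with 15.9 and 15.7 in those of P6, and 2.86 and 1.79 with 14.3 and 14.5 in those of P8. Its log2 fold change was 2.29 (adjusted p = 0.0156), 2.11 (0.00770) and 2.64 (0.00186), and its call was lost at P1 without cKO replicate 2 of P1 (adjusted p = 0.0612) and at P6 without WT replicate 1 of P6 (0.0578). The P1 value of *Cldn19* was 3.46 without WT replicate 1 of P1 and 1.62 without WT replicate 2, and its P1 call was also lost with the compared groups fitted alone (adjusted p = 0.102). *Cldn2*, which forms a cation pore and is known from the choroid plexus, had 5.82 and 6.24 CPM (WT) with 10.5 and 8.86 (cKO) in the P1 libraries, 1.42 and 1.45 with 2.79 and 3.31 in those of P6, and 1.83 and 1.57 with 4.06 and 4.04 in those of P8. Its log2 fold change was 0.68 (adjusted p = 0.0272), 1.09 (0.00122) and 1.26 (3.16e-04), and the P1 call was lost without either WT library or cKO replicate 1 of P1 (adjusted p from 0.0960 to 0.164) and in the compared groups alone (0.0645). *Cldn19* overlaps the minus-strand gene *Gm12927*, and strand use in the counting is not known.

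In the list of other MARVEL, angulin and immunoglobulin proteins, the 6 genes measured were angulins or immunoglobulin proteins. Of these 6, 1 was called higher at P1, 1 higher and 4 lower at P6, and 1 higher and 3 lower at P8. Among all genes tested, 4.01% were called higher and 0.892% lower at P1. The corresponding shares were 7.16% and 6.38% at P6, and 11.2% and 8.37% at P8. *Cxadr*, the coxsackievirus and adenovirus receptor and a homophilic adhesion molecule of junctions, had 34.0 and 34.9 CPM (WT) with 44.1 and 38.7 (cKO) in the P1 libraries, 67.8 and 71.8 with 14.8 and 17.3 in those of P6, and 131 and 130.2 with 17.3 and 19.9 in those of P8. Its log2 fold change was 0.27 at P1 (adjusted p = 0.156), -2.12 at P6 (8.68e-07) and -2.81 at P8 (9.82e-08). *Ildr2*, an angulin of the contacts where 3 cells meet, had 133 and 148 CPM (WT) with 181 and 183 (cKO) in the P1 libraries, 206 and 215 with 113 and 131 in those of P6, and 388 and 376 with 70.6 and 69.9 in those of P8. Its log2 fold change was 0.37 (adjusted p = 0.0127, fold below 1.5), -0.79 (5.55e-05) and -2.44 (3.71e-08). In both genes, as in *Cldn11*, the label cKO had the higher mean at P1 and the lower one at P6 and P8.

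*Lsr*, the angulin that recruits tricellulin, was scarce, between 0.264 and 3.55 CPM, and lower under the label cKO at P6 (log2 fold change -2.04, adjusted p = 0.0297) and P8 (-2.37, adjusted p = 0.0106). Its P6 call was lost without WT replicate 2 or cKO replicate 2 of P6 (adjusted p = 0.129 and 0.154), and its P8 call without WT replicate 1 or cKO replicate 2 of P8 (0.0559 and 0.0702). The compared groups alone gave adjusted p = 0.0504 for *Lsr* at P6, and its values were -2.78 at P6 and -3.24 at P8 without cKO replicate 1 of that time point. *Esam*, an adhesion molecule of endothelial cells, had 0.520 and 0.0983 CPM (WT) with 1.73 and 1.93 (cKO) in the P1 libraries, 2.98 and 2.15 with 0.259 and 0.0933 in those of P6, and 0.589 and 0.790 with 1.71 and 2.10 in those of P8. It was called at P1 (log2 fold change 2.61, adjusted p = 0.0407), at P6 (-3.85, 0.00344), and not at P8 (1.46, 0.103). The P1 call of *Esam* was lost without any 1 of 9 libraries, with adjusted p from 0.0577 to 0.121, and in the compared groups alone (adjusted p = 0.141). Its value at P1 was 4.19 without WT replicate 1 of P1 and 1.82 without WT replicate 2, and at P6 -4.75 without cKO replicate 1. *Jam2*, which encodes JAM-B, had a lower level under the label cKO at P1 (279.6 and 276 against 219 and 209 CPM) and higher ones at P6 (221 and 224 against 355 and 374) and P8 (52.2 and 52.2 against 95.7 and 89.5). Its log2 fold changes were -0.38 (fold below 1.5), 0.71 and 0.83 in that order, the reverse of the order in *Cxadr* and *Ildr2*.

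Of 18 scaffold and plaque genes, 0 were called at P1, 2 were higher at P6 (*Amotl1* at 0.61 and *Magi3* at 0.98 on the log2 scale) and 1 lower at P6 and P8 (*Cgnl1*, which encodes paracingulin, at -0.97 and -0.60). Of 11 polarity genes, 0 were called at P1, 1 was higher at P6 (*Pard6b*, 0.75) and 3 at P8 (*Pard6b* at 1.11, *Crb2* at 0.60 and *Prkcz* at 1.47). Beside the counts of both kinds, the shares of all genes called higher were 4.01% at P1, 7.16% at P6 and 11.2% at P8. Those called lower were 0.892%, 6.38% and 8.37%. Without 1 library, the call was lost for *Amotl1* (0.52 without WT and 0.54 without cKO replicate 2 of P6), for *Cgnl1* at P8 (-0.55 without WT replicate 2) and for *Crb2* (0.48 without WT replicate 1 of P8). The call of *Crb2* was also lost with DESeq2, with its size factors in edgeR and in the compared groups alone (0.58 in each, a fold just below 1.5), and that of *Pard6b* at P6 in the compared groups alone (adjusted p = 0.0569). At P1 the unadjusted p with the same fold called 1 scaffold gene, *Tjp3*, and 0 polarity genes, and DESeq2 called 0 of either kind. The genes with the highest level per length were *Cdc42*, a GTPase of the polarity complexes (239.9 RPKM), *Amotl2* (39.0), *Jam2* (33.7), *Ybx3* (27.4), *Ildr2* (22.4) and *Amotl1* (17.8), so that *Tjp1* at 39.7 stood beside *Amotl2*. From P6 to P8 under the label cKO, 17 of the 38 genes were called lower and 2 higher, beside 12.2% and 11.9% of all genes, with a list median of -0.45.

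**Figure D4:**
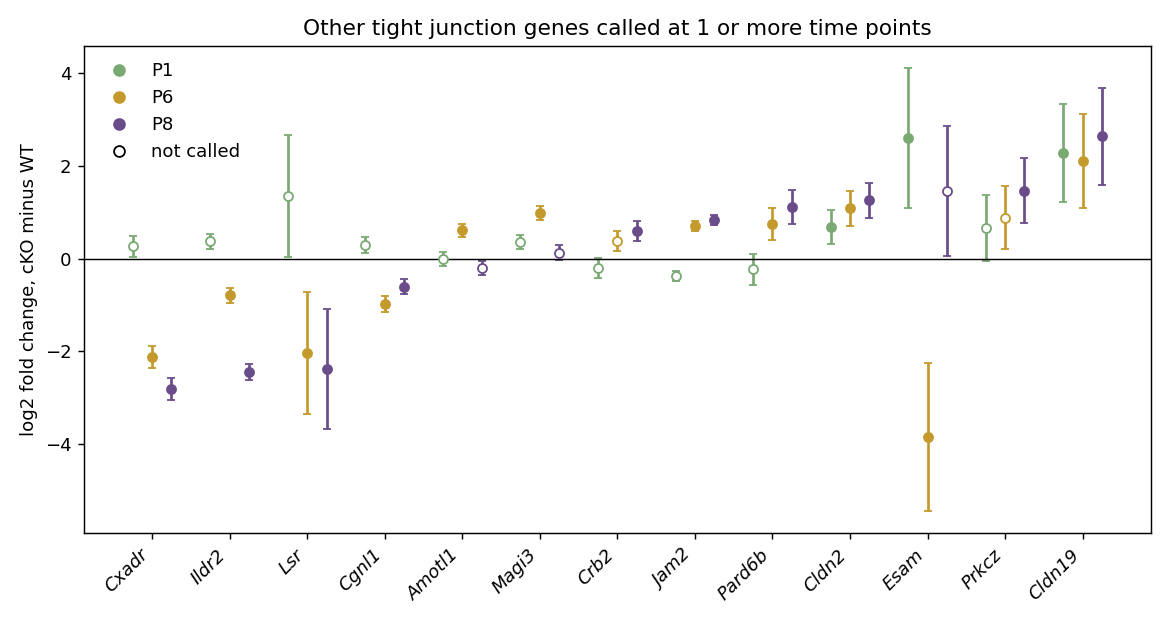
Log2 fold change between the labels (cKO minus WT) at P1, P6 and P8, with 95% confidence intervals, of the 13 other tight junction genes called at 1 or more time points, in order of their P8 value. Filled points were called and open points were not. *Cxadr*, *Ildr2*, *Lsr* and *Cgnl1* are below 0 at P6 and P8, and *Cldn2* and *Cldn19* above 0 at all 3 time points.

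Among the 6 genes whose log2 CPM followed that of *Cldn11* most closely over the 12 libraries, of 15112 tested genes with a mean of at least 1 CPM, were *Cxadr* (Pearson r = 0.960), *Ildr2* (0.948), *H2afy2* (0.943), *Rhbdl3* (0.939) and *Plpp3* (0.938). The 12 libraries fall into 6 groups of 2, so these values describe the pattern over groups. *Cxadr* and *Ildr2* belong to the list of other tight junction genes above. The closest gene was *Gm14005* for *Cldn1* (0.965), *Leng1* for *Cldn12* (0.900), *Dync2li1* for *Ocln* (0.972), *Gfap* for *Tjp1* (0.971) and *Aqp4* for *F11r* (0.989). *Gfap* and *Aqp4* encode the intermediate filament and the water channel by which astrocytes are recognized. Among the members themselves, *Ocln* and *Tjp1* were the closest pair (0.831), and *Cldn1* and *Cldn11* went in opposite directions (-0.760).

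Levels of cell type markers moved with these genes, and in bulk libraries fewer cells of a type and less RNA per cell cannot be told apart. For *Tjp1* and *F11r* the 13 astrocyte markers measured of 14 bear on the result. Their summed CPM was 1932 to 2737 in 10 libraries and 884 to 895 in the 2 P8 cKO libraries, and 6 of the 13 were called lower at P8. None of the 13 was called higher at P8. *Gfap* was at 372 and 384 CPM in P8 WT and 184 and 176 in P8 cKO, and *Aqp4* at 443 and 451 and at 113 and 109. Not all markers of this list fell in the same way. *Aldh1l1* was at 52.4 and 51.3 CPM in P8 WT and 73.3 and 72.1 in P8 cKO, and *Mlc1* at 84.5 and 82.1 and at 83.4 and 80.7. Microglial markers were higher in the same libraries, with a sum of 5376 to 5427 CPM in P8 cKO beside 2634 to 2779 in P8 WT, with *C1qa* and *C1qc* the most abundant, and 7 of 10 were called higher and 1 lower. Of all genes tested, 11.2% were called higher and 8.37% lower at P8. The part of these shifts in the P8 differences of *Tjp1*, *F11r* and *Ocln* was not tested.

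The summed level of meningeal fibroblast markers rose from P1 to P8 under both labels. Under the label cKO some of these markers, such as *Dcn*, were lower at P8 than at P1. *Cldn11* rose from P1 to P8 under the label WT alone, and the part of fibroblasts in its values was not tested. The sum of 13 of 14 such markers was 850 to 857 CPM in P1 WT, 8745 to 8917 in P6 WT and 26270 to 26375 in P8 WT, and 3160 to 3194, 5007 to 5322 and 10062 to 10244 in the groups labelled cKO. Of the 13, 9 were called higher at P1, 1 higher and 9 lower at P6, and 12 lower at P8. For the P1 comparison, 4.01% of all genes tested were called higher and 0.892% lower. In P6 cultures these shares were 7.16% and 6.38%, and in P8 cultures 11.2% and 8.37%. The 2 most abundant fibroblast markers were the collagen genes *Col1a1* and *Col1a2*. *Col1a1* was at 2727 and 2719 CPM in P6 WT and 1609 and 1479 in P6 cKO. *Col1a2* was at 2324 and 2384 in P6 WT and 930.2 and 878 in P6 cKO. Members of the list differed in direction between P1 cKO and P6 cKO. *Dcn*, which encodes decorin, was at 89.6 and 89.7 CPM in P1 cKO and 1.93 and 3.28 in P6 cKO, and *Lum* was at 8.87 and 7.35 and then at 0 in both libraries, whereas *Col1a1* was at 1087 and 1065 in P1 cKO. In P8 cKO *Dcn* was at 45.7 and 44.7. *Foxd1* was at 92.3 and 97.0 in P6 WT and 1.34 and 0.825 in P6 cKO, and *Tbx18* at 51.4 and 48.0 and at 1.78 and 2.18. By contrast, *Bgn* was at 1970 and 1849 in P6 WT and 1983 and 1860 in P6 cKO, and *Islr* at 120 and 126 and at 226 and 224.

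Other lists covered cell types known to contain claudin-11 or other tight junction proteins. The sum of 6 of 9 arachnoid barrier markers was 40.9 to 42.2 CPM in P1 WT and 55.0 to 55.9 in P1 cKO. It was 90.1 to 92.6 in P6 WT and 89.7 to 92.7 in P6 cKO, and 112 to 114 and 75.4 to 76.6 in P8 WT and P8 cKO. Of the 6, 2 were called higher at P1, 2 lower at P6 and 3 lower at P8. The most abundant genes of this list were *Abcg2*, at 56.4 and 57.9 CPM in P6 WT and 65.3 and 65.1 in P6 cKO, and *Klf5*. *Cdh1* of that list, the epithelial cadherin, was at 4.67 and 4.18 CPM in P6 WT and 0.122 and 0.124 in P6 cKO. The 10 oligodendrocyte lineage markers measured of 15, *Cldn11* left out, summed to 175 to 190 in P1 WT and 205 to 209 in P1 cKO. Their sum was 259 to 271 in P6 WT and 232 to 246 in P6 cKO, and 211 to 213 and 175 to 176 at P8. Of the 10, 1 was called higher at P1, 2 lower at P6, and 4 lower and 1 higher at P8. The most abundant were *Cnp* and *Cspg4*. The 8 endothelial markers measured of 12, led by *Mfsd2a* and *Slco1a4*, summed to 256 to 257 in P6 WT and 242 to 261 in P6 cKO, and to 207 to 226 and 110.4 to 114 at P8. Among them *Cdh5* was at 55.7 and 57.0 in P6 WT and 1.11 and 0.607 in P6 cKO, and 3, 2 and 4 of the 8 were called higher at P1, P6 and P8 and 0, 3 and 2 lower. The 9 markers of the choroid plexus and ependyma measured of 12, led by *Foxj1* and *Otx2*, summed to 247 to 264 in P1 WT and 255 to 267 in P1 cKO, 90.1 to 109 against 155 at P6, and 39.6 to 39.8 against 60.6 to 61.7 at P8. *Tmem212* of that list was at 0 in P1 WT and P6 WT. The 3 neuronal markers measured of 10, led by *Stmn2* and *Tubb3*, summed to 116 to 125 in P6 WT and 232 to 249 in P6 cKO, and 2 of the 3 were called higher at P6 and P8. Beside these counts, the shares of all genes called higher were 4.01% at P1, 7.16% at P6 and 11.2% at P8. Those called lower were 0.892%, 6.38% and 8.37%. The part of any of these cell types in the values of *Cldn11*, *Cldn2* or *Esam* was not tested.

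**Figure D5:**
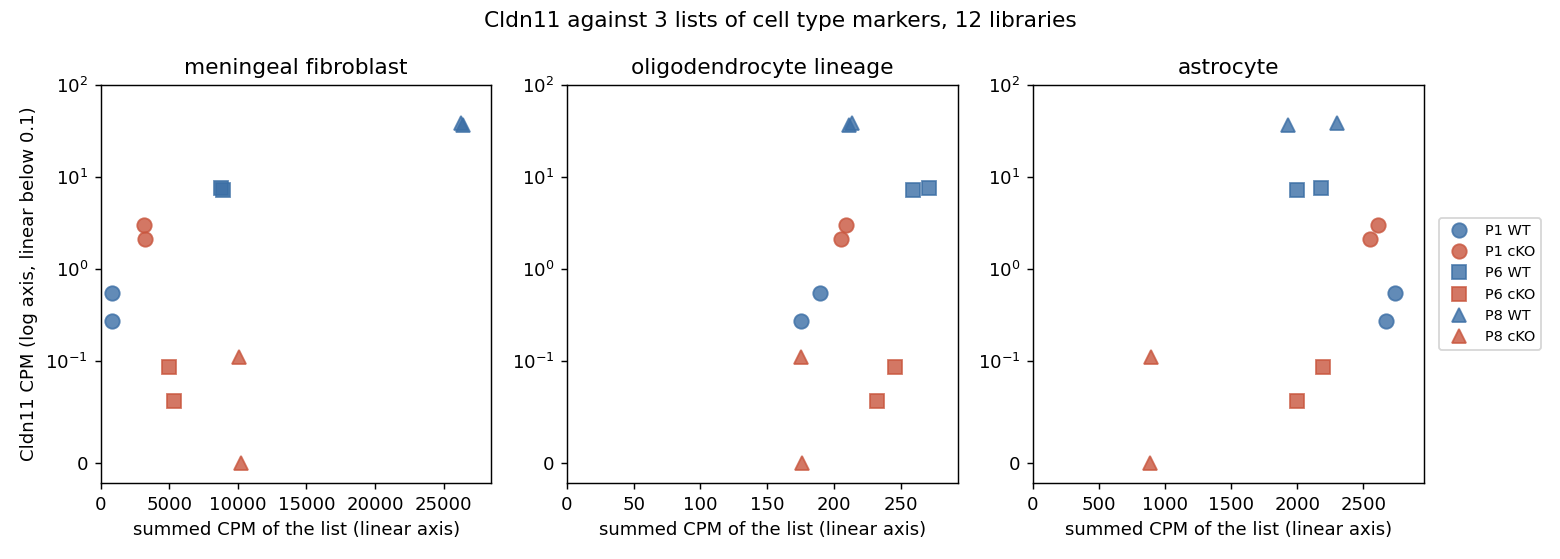
CPM of *Cldn11* (vertical axis, logarithmic above 0.1 CPM) against the summed CPM of markers of meningeal fibroblasts, the oligodendrocyte lineage and astrocytes (linear axes from 0) in the 12 libraries, blue for the label WT and red for cKO, with a symbol for each time point. The 2 P6 cKO libraries have fibroblast sums of 5007 and 5322 and *Cldn11* under 0.1 CPM, while the 2 P1 cKO libraries have 3160 to 3194 and 2.11 and 2.98 CPM. The fibroblast sum is led by *Col1a1* and *Col1a2*, and some markers in it, such as *Dcn*, are lower in P6 cKO than in P1 cKO.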

How the data were processed

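Libraries of captured mRNA were described in the study's methods and labels as primary astrocytes from brains stripped of meninges, digested, and cultured on Matrigel. The authors mapped the reads with HISAT2 to GRCm38 (mm10) and deposited counts, whole numbers of reads for each of 18903 genes with no normalization. The counting program, its annotation and its use of strand were not stated in the sources read.

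The analysis used edgeR 4.0.16 under R 4.3.3 (TMM factors 0.943 to 1.07, filterByExpr, quasi-likelihood test, 1 mean for each of 6 groups over all 12 libraries), and p was adjusted by Benjamini and Hochberg over 17938 genes. The label cKO was compared with WT within each time point, together with steps between time points, and differences of label effects between time points, the last called by adjusted p alone. CPM used TMM library sizes, and RPKM the exonic length of the GENCODE vM21 annotation of GRCm38. Correlations used log2 CPM with a prior count of 2. Intervals on ratios are exact 95% intervals for counting error only. Replicates differed by more than counting noise (chi-square per degree of freedom 30.5 to 47.1), with a Spearman correlation of 0.991 to 0.993 across genes. Replicate numbers were not used as pairs in the main fit, and the labels do not say whether they pair samples. Deviations from group means of libraries with the same number correlated between the labels at -0.03 (P1), -0.0055 (P6) and -0.063 (P8). Such values cannot show whether animals or culture days were shared. The fits were tested on simulated data.

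The genes and lists were chosen with earlier results of these data known. All members were named, and of the other tight junction genes, at each time point the 4 largest changes called with a mean of at least 1 CPM, the 6 highest levels per length, the closest genes by correlation, and of each marker list the genes at 0 in a group and the 2 most abundant. Other list genes called, and the markers *Cdh1*, *Cdh5*, *Dcn*, *Foxd1*, *Tbx18*, *Bgn*, *Islr*, *Aldh1l1* and *Mlc1*, were named after their values were seen. A gene that this rule names is not reported here. Marker lists covered astrocytes, microglia, neurons, the oligodendrocyte lineage, endothelium, meningeal fibroblasts, arachnoid barrier, and choroid plexus with ependyma. Alternatives were DESeq2 1.42.0, its size factors, no filter, a replicate block, the compared groups alone, a fold of 2, the study's unadjusted p, and each library left out. No sequence of the 6 proteins was used here.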

Additional observations from a re-analysis of the deposited data

Results flagged for a closer look

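The difference between the labels was not the same at all time points for 4 of the 6 genes, by interaction terms in edgeR, with p adjusted after Benjamini and Hochberg. By the same rule, 15.3% of all genes tested had unlike effects at P6 and P1. The shares were 21.5% for P8 against P6 and 25.7% for P8 against P1. The share of all genes called in any of these comparisons was not computed. Between P1 and P6, the cKO-minus-WT difference of *Cldn11* moved by -9.16 on the log2 scale (adjusted p = 3.77e-05), from higher to lower under the label cKO, and that of *Cldn1* by 1.73 (adjusted p = 0.00396). Between P6 and P8, the difference of *Tjp1* moved by -0.71 (adjusted p = 1.68e-04) and that of *F11r* by -1.21 (adjusted p = 1.55e-04). Between P1 and P8, the difference of *Cldn1* moved by 0.93 (adjusted p = 0.0492), that of *Tjp1* by -0.91 (adjusted p = 2.46e-05) and that of *F11r* by -1.03 (adjusted p = 2.99e-04). This *Cldn1* value ranged from 0.65 to 1.17 with single libraries left out. Its call was lost in most of those fits and in the compared groups alone (adjusted p = 0.0926 in edgeR). *Tjp1* was higher under the label cKO in both libraries at P1 and lower in both at P8. Groups of 2 libraries were too small for a search for single deviating libraries.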

How the results depend on the processing

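With 2 libraries a group, single libraries decided several values, and the *Cldn11* values of the later cKO groups rest on 0 to 8 reads a library. Over the alternatives, 317 of the counts of called genes stayed within 1.5 times the reported one and 19 did not. At a fold change of at least 2, the other tight junction genes were 2 higher and 3 lower at P6 (6 and 5 reported) and 1 higher and 3 lower between P6 and P8 under cKO (2 and 17), and the members called were 1 between P1 and P6 (3) and 2 between P6 and P8 (4) under cKO. In the compared groups alone, 0 other genes were higher at P1 (3), and by the unadjusted p 1 was lower (0). DESeq2 called 4 members with unlike effects at P8 and P6 (2). Between P6 and P8 under WT (0), 1 member was called with DESeq2, in the compared groups alone and by the unadjusted p. With the replicate number as a block, 1 member was called there, *Ocln* (adjusted p = 0.0473), and the call of *Cldn1* for P8 against P1 was lost (log2 difference 0.91, adjusted p = 0.0655). The block changed no other reported call, and whether the numbers pair the samples is not known.

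With single libraries left out, members called at P1 ranged from 0 to 1, other genes higher at P1 from 1 to 3, and members called between P6 and P8 under WT from 0 to 1. The sign of some log2 differences that were not called changed. For *Cldn12* they ranged from -0.15 to 0.74 at P6 and from -0.50 to 0.077 at P8, from -0.76 to 0.14 for the P6 effect against that at P1, from -0.57 to 0.33 (P1 to P6) and -0.19 to 0.70 (P6 to P8) under WT, and from -0.54 to 0.076 (P6 to P8) under cKO. For *Ocln* at P1 the range was -0.52 to 0.062, and for *Cldn11* from P6 to P8 under cKO -5.40 to 0.49, where 1 library had no read. The cause of the other shifts was not tested. Alternatives for the other tight junction genes one by one, and for their step from P6 to P8 under cKO, were chosen after seeing the data.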
